A study of Mus musculus with 12 samples.

Results

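Immediate early genes were examined in RNA sequencing libraries of oligodendrocyte precursor cells (OPCs) and neurons from the mouse cortex. The 10 genes were taken by name: Fos, Fosb, Jun, Junb, Egr1, Ier2, Atf3, Npas4, Arc and Nr4a1. Each was found once among the 30165 genes of the OPC table and once among the 17918 genes of the neuron table. Libraries of control (ctl) mice, whose genotype is labelled WT, were compared with libraries of double knockout (dKO) mice, in which the L-type calcium channel genes Cacna1c (Cav1.2) and Cacna1d (Cav1.3) are floxed and deleted by NG2-CreERT2. Recombination was induced with tamoxifen (100 mg/kg), injected on postnatal day 7 and again on day 8. Each of the 4 groups had 3 libraries, and each library pooled cells of 2 mice of the same group. The age at tissue collection for these libraries, and whether ctl mice carried Cre or floxed alleles, are not given in the sources used here. NG2 also marks cells other than OPCs, among them pericytes, and neurons were not the cells targeted for recombination.

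Immediate early genes are switched on within minutes of a stimulus, before any new protein is made, when calcium and kinase signals reach factors such as CREB and SRF that are already bound near the gene. In neurons, calcium entry through L-type channels is a classical trigger, and Fos, Arc and Npas4 are used as marks of recent activity. The same genes answer growth factors, injury and stress in most cell types, and enzymatic or mechanical dissociation of brain tissue is known to induce many of them, Npas4 being the member most tied to neuronal depolarization.

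RefSeq start-site sequences were matched for 7 of the 10 genes (build GRCm38.p6). The core of the CRE, the element bound by CREB, was searched as TGACG on both strands in the window from 250 bases before to 50 bases after the start site. It was found in 6 of the 7 windows, all but that of Jun, and in 20.8% of 32851 start-site windows of the same length. The palindromic CRE TGACGTCA, of which TGACG is a part, was found in 0 of the 7 windows and in 1.79% of all windows. The AP-1 site TGACTCA was found in 0 of the 7 and in 5.20% of all, and the CArG box bound by SRF in 0 of the 7 and in 1.63% of all, which says only that these letters are absent from this window. Below, the 180 bases before the start site are given 5′ to 3′ on the gene's strand for the 4 genes whose stretch holds no annotated exon, so that the number and place of the CRE cores can be compared. Capitals mark TGACG or its reverse complement CGTCA. The Fos stretch is chr12:85473710-85473889 on the plus strand, that of Jun chr4:95052223-95052402 on the minus strand, that of Junb chr8:84978749-84978928 on the minus strand and that of Nr4a1 chr15:101266666-101266845 on the plus strand.
Fos: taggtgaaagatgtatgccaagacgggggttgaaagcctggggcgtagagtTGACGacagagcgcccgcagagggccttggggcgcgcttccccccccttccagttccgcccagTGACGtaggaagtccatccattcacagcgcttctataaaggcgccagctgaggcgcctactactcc
Jun: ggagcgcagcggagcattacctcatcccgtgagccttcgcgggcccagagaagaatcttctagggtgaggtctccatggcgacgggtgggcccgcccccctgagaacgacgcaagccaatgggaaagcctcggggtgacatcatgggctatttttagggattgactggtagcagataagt
Junb: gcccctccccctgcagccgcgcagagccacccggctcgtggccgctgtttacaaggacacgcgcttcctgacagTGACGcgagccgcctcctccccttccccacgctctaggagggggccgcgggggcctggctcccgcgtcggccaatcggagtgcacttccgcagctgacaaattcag
Nr4a1: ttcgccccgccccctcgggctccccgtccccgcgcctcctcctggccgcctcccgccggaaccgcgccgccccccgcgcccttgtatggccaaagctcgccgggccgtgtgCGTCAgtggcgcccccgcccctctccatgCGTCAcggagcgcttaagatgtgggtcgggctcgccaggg
The cores began at −129 and −66 from the start site in Fos, at −106 in Junb and at −69 and −40 in Nr4a1, whose window held a further pair at −233 and −213. Those of Nr4a1 read CGTCA on the gene's strand. The other windows with a core were those of Fosb (−60), Npas4 (−179 and −169) and Atf3 (−7).

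The libraries held 14935963 to 19812274 counts in OPCs and 15052892 to 16344601 in neurons. Levels are given as CPM, counts scaled to library size after TMM normalization. The groups were compared with the quasi-likelihood test of edgeR on every gene that averaged 10 or more normalized counts, and p was adjusted over all of them. OPCs had been enriched with beads against CD140, NG2 and O4 after a warm incubation of the dissociated cells in which surface proteins re-express. Neurons were what remained after ACSA-2, CD31, CD11b and O4 positive cells had been removed. Against their label, markers of mature oligodendrocytes summed to 49808 to 86308 CPM over 12 genes in the OPC libraries, and 12 OPC markers to 1687 to 3347. There, 8 ependymal and choroid plexus markers summed to 24296, 10597 and 12072 CPM in ctl and 16855 to 17712 in dKO. In the neuron libraries 14 neuron markers summed to 784 to 1772 CPM, 14 endothelial markers to 14777 to 32761 and 10 blood cell markers to 11106 to 73193, so both sets of libraries are named below by their label only. In such bulk libraries fewer cells of a type and less RNA per cell cannot be told apart. The targeted gene Cacna1c stood at 21.3, 23.5 and 25.1 CPM in ctl and 14.4, 19.3 and 17.9 in dKO OPC libraries (log2 fold change −0.44, SE 0.15, adjusted p = 0.349), and Cacna1d at 14.4, 10.9 and 14.6 against 5.31, 8.77 and 13.3 (−0.55, SE 0.31, adjusted p = 0.531). Both were lower on average in dKO OPC libraries, without overlap for Cacna1c, and neither was past the threshold. The floxed stretches named in the paper cover only some exons of each gene, so these whole-gene counts do not measure recombination.

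In the OPC libraries 9 of the 10 members lay at or above the 88.8th percentile of the tested genes in every library, the exception being Npas4 (1.37 to 22.9), and no member differed between dKO and ctl at an adjusted p under 0.05. Together they made up 0.629% to 0.902% of all counts in an OPC library and 0.115% to 0.155% in a neuron library. On the log2 scale 8 of the 10 were higher in dKO OPC libraries, where 50.8% of all 17364 genes tested were, and their median log2 fold change was 0.20, against 0.0055 over all genes. The count past an adjusted p of 0.05 was 0 of 10, beside 0.00576% of all genes (1 gene). With DESeq2 it was also 0 of 10, beside 293 genes in all, and without dKO replicate 2 it was 0 of 10, beside 199 genes. At an unadjusted p under 0.05, 1 member, Junb, was higher, beside 6.27% of all genes, and 0 were lower, beside 5.27% (2003 genes in both directions). The groups did not overlap in 1 member, Egr1, beside 17.0% of all genes. For Egr1 every dKO library lay above every ctl library, as for 7.41% of all genes, and 0 members showed the reverse, beside 9.55% of all genes.

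**Figure D1:**
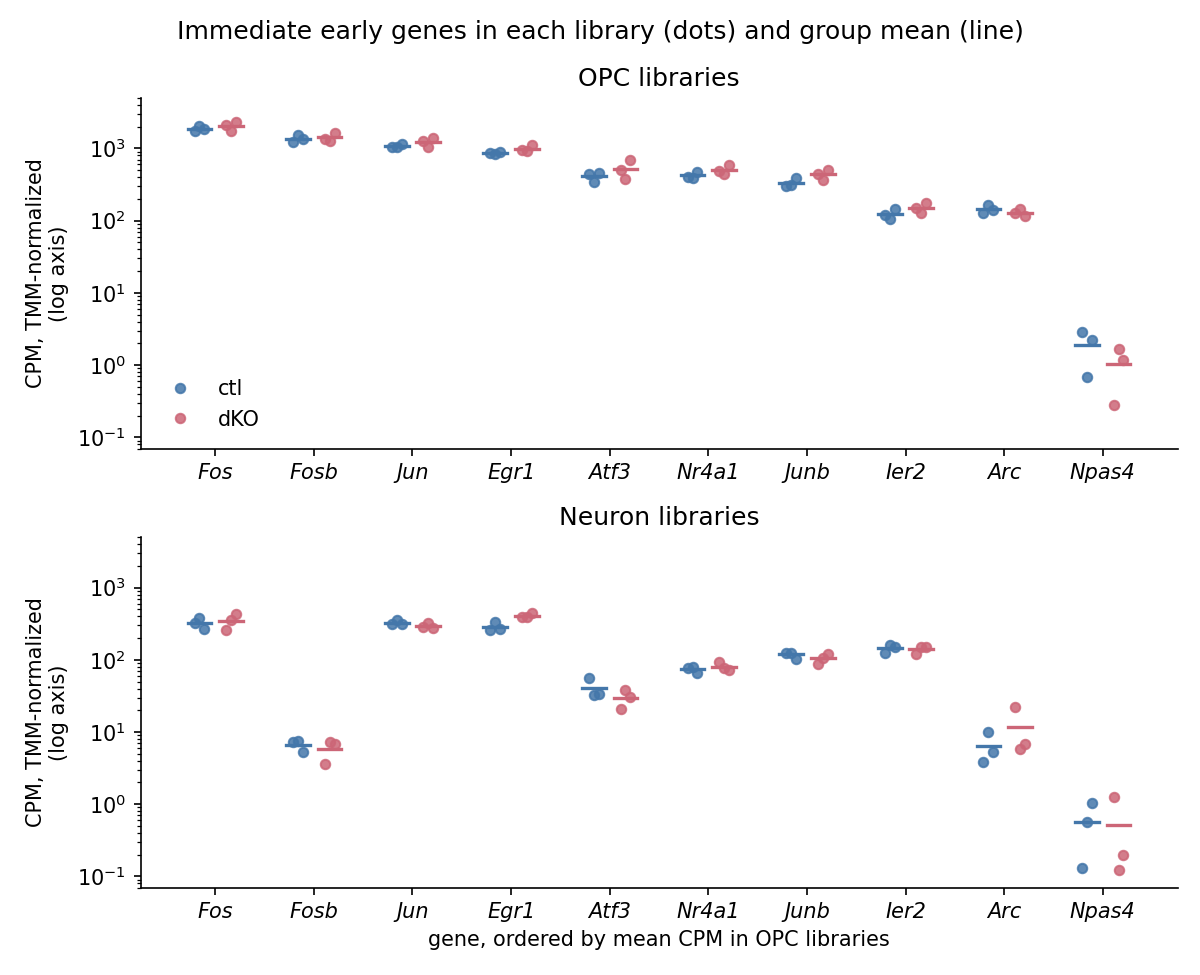
Level of each gene in each library (dots) with the group mean (line), as TMM-normalized CPM on a log axis, for 3 ctl and 3 dKO libraries per cell type. In OPC libraries ctl and dKO dots overlap for every gene except Egr1, and in neuron libraries Fosb, Arc and Npas4 have the lowest means, Arc reaching the level of Atf3 in dKO replicate 1 (22.0 and 20.8 CPM).

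Fos, Fosb, Jun and Junb encode subunits of the AP-1 transcription factor. Fos (chromosome 12, 85520664 to 85524047 as deposited, in coordinates other than those of GRCm38) stood at 1729, 2046 and 1875 CPM in the ctl OPC libraries and at 2085, 1752 and 2320.0 CPM in the dKO OPC libraries. The groups overlapped, with dKO replicate 3 highest and ctl replicate 1 lowest. The log2 fold change was 0.12 (SE 0.18, 95% interval −0.29 to 0.54, adjusted p = 0.832), which leaves room for a difference of up to 1.45-fold. Without dKO replicate 3 it was 0.017. Fosb (chromosome 7, 19036621 to 19043976), a close relative of Fos, stood at 1228, 1545 and 1341 CPM in ctl and 1358, 1288 and 1615 CPM in dKO. Again the groups overlapped, with a log2 fold change of 0.051 (SE 0.17, interval −0.34 to 0.44, adjusted p = 0.935).

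Jun (chromosome 4, 94937271 to 94940459), the main dimer partner of Fos, stood at 1043, 1035 and 1145 CPM in ctl and 1251, 1057 and 1387 CPM in dKO OPC libraries. Replicates 1 and 3 of dKO lay above all ctl libraries and replicate 2 among them, and the log2 fold change was 0.20 (SE 0.16, adjusted p = 0.662), or 0.094 without dKO replicate 3. Junb (chromosome 8, 85701113 to 85705347), which competes with Jun for the same partners, stood at 306, 309 and 389 CPM in ctl and 444, 363 and 503 CPM in dKO. The same pair of dKO libraries was above every ctl library, while dKO replicate 2 was below ctl replicate 3. Its log2 fold change was the highest of the 8 members above 0, at 0.38 (SE 0.17, interval 0.0064 to 0.76, 1.30-fold), with an unadjusted p of 0.0470 and an adjusted p of 0.432 by edgeR. Without dKO replicate 3 it was 0.26, and in that fit 0 members had an unadjusted p under 0.05. Junb overlaps the opposite-strand gene Prdx2, which had 1344 to 2350 counts per library, and the library kit does not mark strand. The annotation of the OPC table also places Junos (14 to 43 counts) over Jun, on the other strand.

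Egr1 and Nr4a1 encode transcription factors of other families, a zinc finger protein and an orphan nuclear receptor. Egr1 stood at 852, 834 and 906 CPM in ctl and 958, 916 and 1122 CPM in dKO OPC libraries. All 3 dKO libraries were higher than all 3 ctl libraries, though dKO replicate 2 exceeded ctl replicate 3 only narrowly. The log2 fold change was 0.21 (SE 0.15, interval −0.13 to 0.54) with an adjusted p of 0.608 by edgeR, and 0.11 without dKO replicate 3. Nr4a1 (chromosome 15, 101152150 to 101172676) stood at 404, 394 and 475 CPM in ctl and 491, 443 and 593 CPM in dKO. Of these, only dKO replicate 2 fell within the ctl range, and the log2 fold change was 0.26 (SE 0.15, adjusted p = 0.545), or 0.13 without dKO replicate 3.

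Ier2, a small nuclear protein, and Atf3, a repressor of the ATF family and a target of the integrated stress response, were both highest in dKO replicate 3 and next highest in dKO replicate 1. Ier2 (chromosome 8, 85387960 to 85389483) stood at 121, 104 and 143 CPM in ctl and 152, 127 and 174 CPM in dKO OPC libraries, a log2 fold change of 0.30 (SE 0.16, adjusted p = 0.512). Atf3 (chromosome 1, 190902493 to 190950236) stood at 449, 339.8 and 462 CPM in ctl and 508, 381 and 685 CPM in dKO (0.33, SE 0.22, adjusted p = 0.592). The groups overlapped for both genes through dKO replicate 2. Without dKO replicate 3 the log2 fold change of Atf3 was 0.084 and that of Ier2 0.17.

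Arc and Npas4 were the 2 members with a log2 fold change below 0 in OPC libraries. Arc (chromosome 15, 74540932 to 74544419), which encodes a cytoskeletal protein of active synapses, stood at 128, 163 and 142 CPM in ctl and 128, 143 and 115 CPM in dKO. Its lowest value was that of dKO replicate 3, the library that was highest for 8 of the 10 members, and the log2 fold change was −0.16 (SE 0.13, interval −0.47 to 0.14, adjusted p = 0.659). Npas4 (chromosome 19, 5034383 to 5040344), a transcription factor induced by depolarization, had only 57, 10 and 37 counts in ctl and 5, 32 and 19 in dKO OPC libraries. These counts overlapped and varied more between libraries of a group than those of any other member, with a coefficient of variation of 58.3% in ctl and 67.6% in dKO on the CPM scale. The log2 fold change of −0.90 (SE 0.67, interval −2.42 to 0.63, adjusted p = 0.628) therefore came with an interval that holds both a rise and a several-fold drop. With a library left out this log2 fold change ran from −1.44 (without dKO replicate 2) to −0.45 (without dKO replicate 1).

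**Figure D2:**
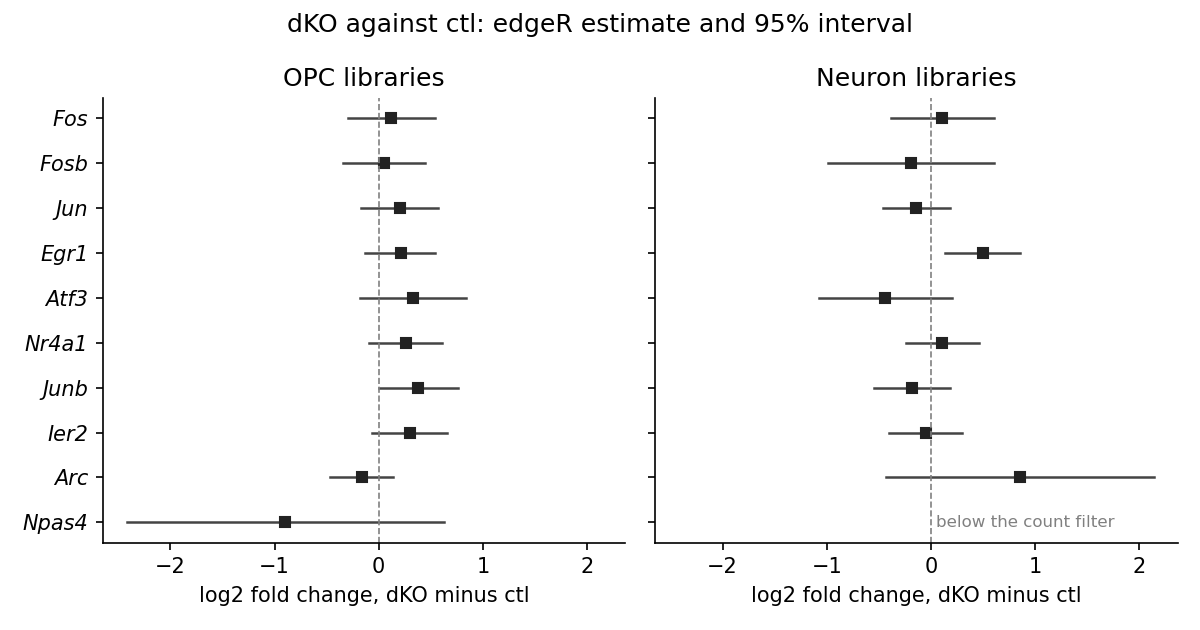
edgeR estimates of the log2 fold change of dKO against ctl (squares) with 95% intervals (lines) for each gene and cell type. In OPC libraries only the interval of Junb lies above 0, from 0.0064 to 0.76, and in neuron libraries only that of Egr1, from 0.14 to 0.86.

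In the neuron libraries the log2 fold changes ran from −0.44 for Atf3 to 0.86 for Arc. Of the 9 members that passed the count filter 4 were higher in dKO, where 51.1% of all 14352 genes tested were, and their median log2 fold change was −0.047, against 0.0075 over all genes. By edgeR 0 members and 0% of all genes had an adjusted p under 0.05, while at an unadjusted p under 0.05, 1 member was higher, beside 4.96% of all genes, and 0 were lower, beside 4.04% (1292 genes in both directions). DESeq2 called 88 genes at an adjusted p under 0.05, of which 0 were members. Egr1 stood at 262, 338 and 263 CPM in ctl and 389.7, 388 and 439 CPM in dKO neuron libraries. Every dKO library was higher than every ctl library, and the dKO values lay close together. Egr1 was the only member whose groups did not overlap, beside 15.3% of all genes (7.50% with dKO higher, 7.82% with dKO lower). The log2 fold change of Egr1 was 0.50 (SE 0.16, interval 0.14 to 0.86), or 1.41-fold (1.10 to 1.81), with an unadjusted p of 0.0123 and an adjusted p of 0.521 by edgeR. With each library left out in turn it was 0.43 to 0.63, and without ctl replicate 3 its unadjusted p was no longer under 0.05.

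The AP-1 genes did not separate the groups in neuron libraries. Fos stood at 325, 379 and 265 CPM in ctl and 260.3, 359.9 and 429 CPM in dKO, with the lowest and the highest value both in dKO. Its log2 fold change was 0.11 (SE 0.22, interval −0.38 to 0.61, adjusted p = 0.899) and fell below 0 without dKO replicate 3 (−0.059) or ctl replicate 3 (−0.0095). Jun stood at 312, 353 and 311 CPM in ctl and 286, 324 and 274 CPM in dKO (−0.14, SE 0.14, adjusted p = 0.780), and Junb at 126, 125 and 104 against 86.9, 107 and 119 CPM (−0.18, SE 0.16, adjusted p = 0.752). Both were somewhat lower in dKO with overlapping groups. The value of Jun was −0.079 without ctl replicate 2, and that of Junb −0.069 without dKO replicate 1. Fosb stood at 7.22, 7.48 and 5.35 CPM in ctl and 3.64, 7.15 and 6.82 CPM in dKO, from 58 to 120 counts a library (−0.19, SE 0.35, adjusted p = 0.899). The low value was that of dKO replicate 1, and without that library the log2 fold change was 0.064.

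Nr4a1 was between 65.7 and 91.8 CPM and Ier2 between 121 and 158 CPM in the 6 neuron libraries, and their log2 fold changes were 0.11 (SE 0.15) and −0.047 (SE 0.15). That of Nr4a1 was 0.00021 without dKO replicate 1. Atf3 stood at 55.5, 32.5 and 33.1 CPM in ctl and 20.8, 37.7 and 30.8 CPM in dKO, with ctl replicate 1 high and dKO replicate 1 low (−0.44, SE 0.28, adjusted p = 0.676). Without ctl replicate 1 it was −0.14. Arc stood at 3.90, 9.84 and 5.35 CPM in ctl and 22.0, 5.82 and 6.82 CPM in dKO. A single library, dKO replicate 1, carried its log2 fold change of 0.86 (SE 0.56, adjusted p = 0.686), which was −0.012 without it. That library also had the highest sum of the 14 neuron markers, 1772 CPM against 784 to 1325 in the others. It was highest as well for the ependymal and choroid plexus markers (30739 CPM) and the blood cell markers (73193 CPM), and lowest for the endothelial markers (14777 CPM), and the part of these cells in the level of Arc was not tested. Npas4 had 2, 9 and 15 counts in ctl and 20, 2 and 3 in dKO neuron libraries and was not tested. In libraries labelled as neurons this gene was thus counted 2 to 20 times per library.

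The order of the genes within a library was compared per transcript length, as FPKM in the OPC table and TPM in the neuron table. In OPC libraries the mean FPKM over the 6 libraries was highest for Fos (832), then Jun (359), Fosb (222), Atf3 (217), Egr1 (206), Junb (167), Nr4a1 (132), Ier2 (89.2), Arc (44.4) and Npas4 (0.353). Fosb and Atf3 could not be ordered, Fosb being above Atf3 in 3 of 6 libraries, and Atf3 was above Egr1 in 4 of 6. Every other neighbour pair kept its order in 6 of 6 libraries, and the ranges of Fos and Jun, of Jun and Fosb, of Ier2 and Arc and of Arc and Npas4 did not overlap. In neuron libraries the mean TPM was highest for Fos (295), then Egr1 (198), Ier2 (180.4), Jun (170.4), Junb (114), Nr4a1 (55.3), Atf3 (33.2), Arc (4.85), Fosb (2.99) and Npas4 (0.0767). Egr1 was above Ier2 in 3 of 6 libraries, Ier2 above Jun in 4 of 6 and Arc above Fosb in 4 of 6, and the other neighbours kept their order in 6 of 6.

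**Figure D3:**
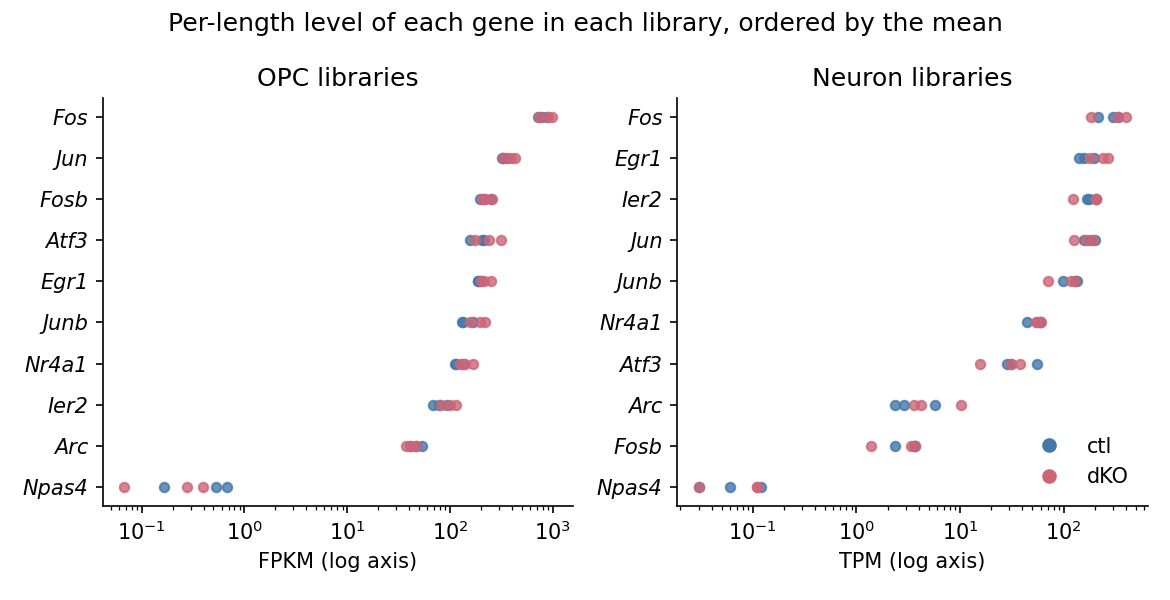
Per-length level of each gene in each library, as FPKM for OPC libraries and TPM for neuron libraries on log axes, with genes ordered by their mean. Fos is at the top and Npas4 at the bottom in both, while Fosb stands next to Jun and Atf3 in OPC libraries and just above Npas4 in neuron libraries.

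Fosb was the member whose place differed most between the tables. In OPC libraries there were 65.1 to 75.5 Fosb counts per 100 Fos counts, and in neuron libraries 1.40 to 2.22. Per length, Fosb stood at 24.5 to 28.4 FPKM per 100 FPKM of Fos and at 0.756 to 1.22 TPM per 100 TPM of Fos. By library there were 71.0, 75.5 and 71.5 Fosb counts per 100 Fos counts in ctl and 65.1, 73.5 and 69.6 in dKO OPC libraries. In neuron libraries there were 2.22, 1.97 and 2.02 in ctl and 1.40, 1.99 and 1.59 in dKO. The groups overlapped in both cell types, with 2 of the 3 dKO libraries below every ctl library in each. The neuron table divides Fosb between the RefSeq transcripts NM_001347586 (55.0% of its counts) and NM_008036 (45.0%). The tables were counted by different procedures, so the difference between cell types was not tested. By comparison Junb stood at 29.3 to 36.3 counts per 100 Jun counts in OPC libraries and 30.4 to 43.3 in neuron libraries, ranges that overlap.

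Within the OPC libraries most members moved together from library to library. Of the 45 pairs of members 28 had a Pearson r above 0 over the 6 libraries, with a median of 0.54, and after subtraction of the group means the median was 0.52. Jun, Junb, Egr1, Ier2, Atf3 and Nr4a1, a set picked out after these values were seen, had an r of 0.85 to 0.98 in their 15 pairs and of 0.83 to 0.97 within groups, and Fos and Fosb one of 0.90. Arc had an r below 0 with each of the 9 others (−0.92 to −0.04), as did Npas4 (−0.67 to −0.05). Within groups these ran from −0.90 to 0.07 for Arc and from −0.60 to 0.23 for Npas4. In neuron libraries the same 15 pairs ranged from −0.59 to 0.75, and the median over all 36 pairs was 0.10 (0.30 within groups). All these values share the library and its normalization and come from 6 points, and they are given as a description only. The genes whose profile over the OPC libraries was most like the mean profile of the members were Tlr12 (r = 0.993), Slc30a1 (0.992), Fkbp7 (0.991), Itga8 (0.990), Socs3 (0.986), Omd (0.986), Acpp (0.982) and Il6st (0.982), again over 6 libraries. In neuron libraries they were Olfml2b (0.997), Mink1 (0.986), Slc35e2 (0.984), Afdn (0.981), Clmp (0.976), Cstf2t (0.973), Scube1 (0.968) and Zfp449 (0.968).

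Other immediate early genes, from a list of 55 further symbols such as the remaining Egr, Nr4a, Klf, Dusp and Ier genes, were mostly higher in dKO OPC libraries. Of the 52 tested 48 were higher, with a median log2 fold change of 0.30 against 0.0055 over all genes, 0 had an adjusted p under 0.05, and 15 were higher and 1 lower at an unadjusted p under 0.05, beside shares of 6.27% and 5.27% over all genes. The lower one was Plk3, a polo-like kinase, at −0.33, named after its value was seen. Ier3, a survival factor, stood at 29.6, 22.6 and 29.7 CPM in ctl and 46.7, 42.1 and 54.6 CPM in dKO (0.81, SE 0.15, unadjusted p = 5.97e-04, adjusted p = 0.246). Zfp36l2, which promotes decay of AU-rich mRNAs, stood at 82.9, 78.6 and 79.3 against 103, 126 and 132 CPM (0.58, SE 0.12, adjusted p = 0.246). Nr4a3, the paralogue of Nr4a1, stood at 29.0, 34.5 and 37.3 against 46.0, 46.7 and 52.1 CPM (0.52, SE 0.13, adjusted p = 0.286). For each of these the groups did not overlap, as for 10 of the list in this direction and 7.41% of all genes. Single libraries set the size of this pattern: without dKO replicate 3, 42 of the list were higher and 6 had an unadjusted p under 0.05 in that direction, without ctl replicate 2 these were 7, and without dKO replicate 2 they were 27.

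The neuronal activity response list, genes known to follow the first wave in depolarized neurons, was also higher in dKO OPC libraries for 20 of 23 genes, with a median of 0.44. At an unadjusted p under 0.05, 5 were higher and 0 lower, where 6.27% and 5.27% of all genes were, and 0 passed the adjusted threshold. Neuron markers were higher in the same libraries for 11 of 13 genes tested (median 0.35), with sums of 224 to 270.1 CPM in ctl and 258 to 329 CPM in dKO, and their part in this list was not tested. The smallest p values were those of Dclk1, a microtubule-associated kinase, at 61.8, 58.4 and 57.7 against 71.3, 111 and 79.8 CPM (0.56, SE 0.16, adjusted p = 0.310), of Rgs2, a regulator of G protein signalling, at 31.3, 21.8 and 30.4 against 42.6, 34.6 and 52.7 CPM (0.64, SE 0.19, adjusted p = 0.313), and of Ptgs2, the inducible cyclooxygenase, at 12.8, 12.5 and 14.8 against 20.3, 16.5 and 31.9 CPM (0.77, SE 0.24, adjusted p = 0.313). Without dKO replicate 2 the 5 higher genes with an unadjusted p under 0.05 were 9. Of 20 heat shock and chaperone genes tested 7 were higher and 13 lower, with a median of −0.068, and the difference from the other lists was not tested. At an unadjusted p under 0.05, 0 were higher and 1 lower, a share of the list close to the 5.27% of all genes. Without dKO replicate 3, 2 were higher, and without ctl replicate 2 or dKO replicate 2 the lower genes with an unadjusted p under 0.05 were 0. That gene, the Hsp70 co-chaperone Hsph1, stood at 514, 664 and 566 CPM in ctl and 403, 393 and 476 CPM in dKO (−0.45, SE 0.15, adjusted p = 0.330). Hsph1 was 1 of 4 genes of this list with every dKO library below every ctl library, as for 9.55% of all genes. The reverse held for 0 of the list, beside 7.41% of all genes.

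**Figure D4:**
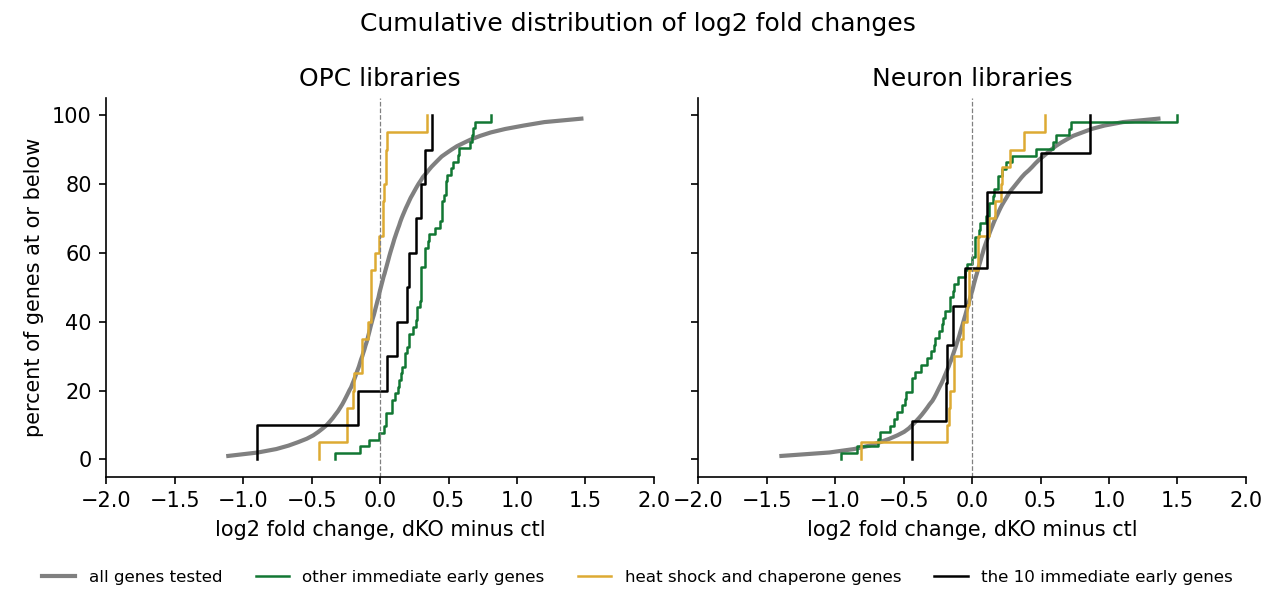
Cumulative distribution of log2 fold changes of dKO against ctl, with the percent of genes at or below each value, for all genes tested (grey), the 10 genes, the other immediate early genes and the heat shock genes. In OPC libraries the curve of the other immediate early genes lies to the right of all genes (medians 0.30 and 0.0055), and in neuron libraries to the left (−0.13 and 0.0075).

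In neuron libraries the other immediate early genes leaned the opposite way. Of 51 tested 21 were higher and 30 lower, with a median of −0.13, where 51.1% of all genes tested were higher. With a library left out 17 (without ctl replicate 1) to 25 (without ctl replicate 2) were higher, so the lean depended on single libraries. At an unadjusted p under 0.05, 3 were higher and 9 lower, beside shares of 4.96% and 4.04% over all genes. Irf1, an interferon-responsive factor, stood at 195, 107 and 140.0 CPM in ctl and 62.4, 92.7 and 73.0 CPM in dKO (−0.96, SE 0.24, adjusted p = 0.521). Nfil3, a bZIP repressor, stood at 16.1, 18.6 and 20.0 against 33.8, 30.3 and 25.4 CPM (0.71, SE 0.18, adjusted p = 0.521), and Ier5l at 0.976, 2.24 and 2.74 against 6.15, 6.31 and 4.39 CPM (1.5, SE 0.46, adjusted p = 0.521). In all 3 the groups did not overlap, as for 7.50% of all genes with dKO higher and 7.82% with dKO lower. The 9 lower genes were 4 without dKO replicate 3 and 5 without ctl replicate 2. The difference in direction between the cell types was not tested. The neuronal activity response list had 15 of 23 genes higher (median 0.24), led by the prohormone convertase gene Pcsk1 at 3.58, 5.36 and 8.51 against 15.6, 10.5 and 9.64 CPM (1.03, SE 0.37, adjusted p = 0.521), and 9 of 23 without dKO replicate 1. Of 20 heat shock genes 9 were higher, with a median of −0.021.

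Markers of other cell types differed between the OPC libraries. All 16 microglia markers were higher in dKO, with a median log2 fold change of 1.32, and their summed level was 334, 319 and 389.5 CPM in ctl and 991, 418 and 1290.0 CPM in dKO. The dKO libraries with the highest microglia sums, replicates 3 and 1, were also those with the highest sums of the 10 immediate early genes, which were 6261, 6769.7 and 6882 CPM in ctl and 7376, 6472 and 8514 CPM in dKO. Of the immune activation genes of microglia 14 of 14 tested were higher, 12 with an unadjusted p under 0.05 (6 without dKO replicate 3), where 6.27% of all genes were, with sums of 57.0 to 70.6 CPM in ctl and 82.3 to 211 in dKO. Interleukin 1 beta, Il1b, stood at 2.80, 1.29 and 1.73 CPM in ctl and 7.27, 4.72 and 10.6 CPM in dKO (1.93, SE 0.39, adjusted p = 0.246). The 14 endothelial markers were all higher and summed to 2029 to 2899 CPM in ctl and 1740.0 to 4749.7 in dKO, with the same pair of dKO libraries highest and dKO replicate 2 lowest. The 12 astrocyte markers were all higher and summed to 1248 to 2102 CPM in ctl and 2019 to 5925 in dKO, where the highest was dKO replicate 2, the dKO library with the lowest sum of immediate early genes. Of the 12 oligodendrocyte markers 10 were lower in dKO (median −0.42), 3 of them without overlap, as for 9.55% of all genes, and their sum was lowest in dKO replicate 3 (49808 CPM, against 67623 to 86308 in the others). Of the 12 OPC markers 9 were higher (median 0.61), and their sum was highest in dKO replicate 2 (3347 CPM) and 1687 to 2748 in the others. None of the listed markers was at 0 in all libraries, and the part of any of these cells in the levels of the immediate early genes was not tested.

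**Figure D5:**
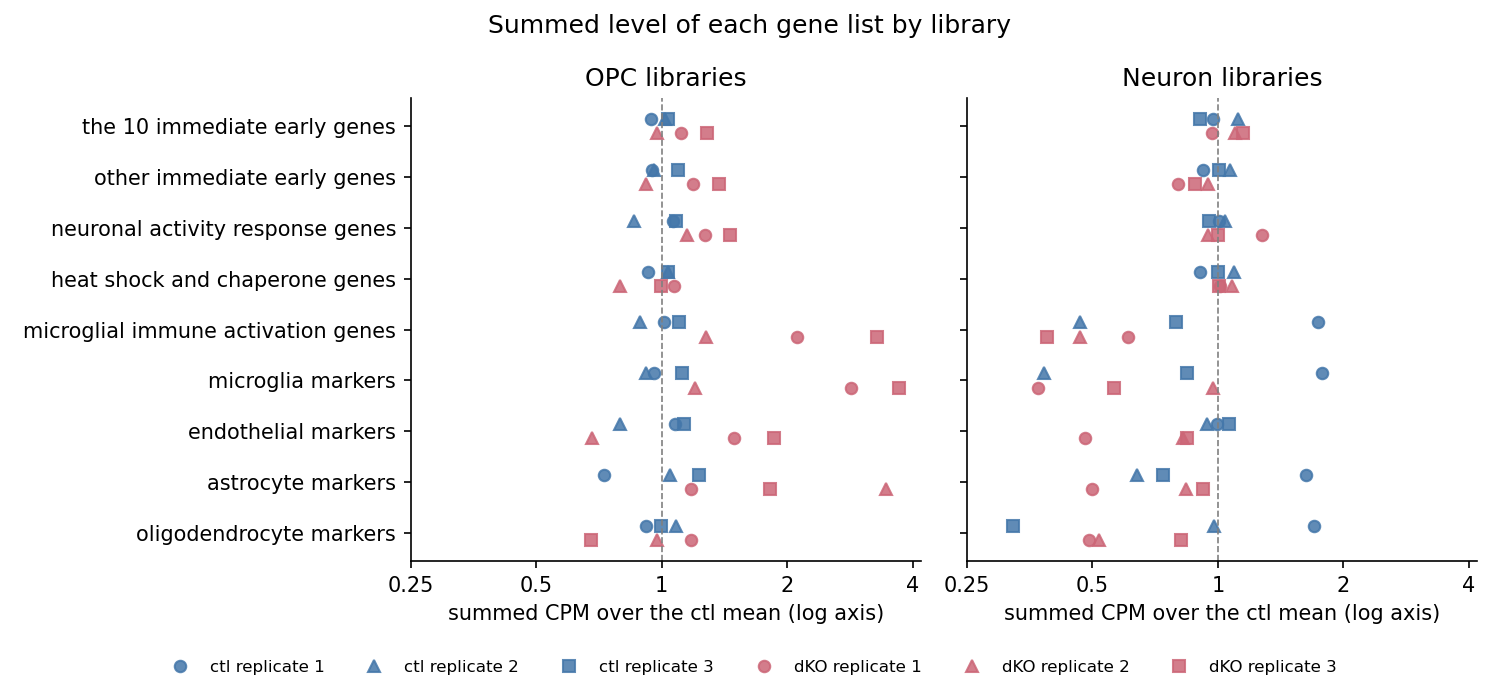
Summed CPM of each gene list in each library, divided by the ctl mean of that cell type, on a log axis, with ctl and dKO libraries in separate colours and one symbol per replicate. In OPC libraries dKO replicates 1 and 3 are highest for the immediate early genes, the microglia lists and the endothelial markers, and the heat shock sums of dKO (7932 to 10695 CPM) overlap those of ctl (9273 to 10394 CPM).

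In neuron libraries the microglia markers were lower in dKO for 16 of 16 genes (median −0.71), 0 of them with an unadjusted p under 0.05. Their sums were 2485, 535 and 1183 CPM in ctl and 520.1, 1362 and 789 in dKO. These sums overlapped, with ctl replicate 1 standing far above the other ctl libraries. Immune activation genes were lower for 14 of 14 tested (median −0.89), 2 with an unadjusted p under 0.05, where 4.04% of all genes were, and this count ran from 0 to 7 with a library left out. Endothelial markers were lower for 14 of 14 and summed to 28979 to 32761 CPM in ctl and 14777 to 25981 in dKO, without overlap of the sums. Oligodendrocyte markers were lower for 12 of 12 (median −0.88), 1 of them with an unadjusted p under 0.05, beside 4.04% of all genes. They summed to 4159.7, 2395 and 787 CPM in ctl and 1201, 1266 and 1999.5 in dKO, so the highest and the lowest sum were both in ctl. Neuron markers were higher for 12 of 14 and summed to 784, 1103 and 1130.3 CPM in ctl and 1772, 1325 and 1090.2 in dKO, while Egr1 was highest in dKO replicate 3, which had the lowest dKO sum of neuron markers. The ependymal and choroid plexus markers summed to 4989 to 9454 CPM in ctl and 8732 to 30739 in dKO, and the blood cell markers to 11106 to 49186 and 17400.5 to 73193. Astrocyte markers were lower for 9 of 12 genes (median −0.39), as were OPC markers for 9 of 12 (median −0.71). What these shifts contributed to the value of Egr1 or to those of the other immediate early genes was not tested.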

How the data were processed

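RNA sequencing of OPC and neuron libraries (3 per group, 2 mice pooled in each) was analysed from the deposited tables. Groups and replicate numbers were taken from the sample titles. For OPCs the authors deposited raw counts and FPKM per Ensembl gene, and their methods name HISAT2, GRCm38 and featureCounts for every sample. The submitters' processing notes name mm39, and gene starts and ends match the GENCODE M21 annotation of GRCm38 for 2.09% of 28720 identifiers, so the deposited coordinates are not those of GRCm38. They are printed as deposited and were not compared with an annotation of mm39. For neurons the authors deposited estimated counts and TPM per RefSeq transcript, which are not whole numbers and so are not plain featureCounts output. The program that made them is not given in the sources used here. The estimated counts were summed per gene and rounded, and 17794 of 17918 gene identifiers were matched to symbols. The tables also hold the authors' own fold changes and p-values, which were not used. The library kit does not mark strand. FPKM and TPM served only to order genes within a cell type and to set Fosb against Fos within each library.

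The quasi-likelihood test of edgeR 4.0.16 (R 4.3.3) was run on genes averaging 10 or more TMM-normalized counts. Genotype was the only covariate, and p was adjusted by Benjamini-Hochberg with a threshold of 0.05. The standard error of a log2 fold change was derived from its F statistic. Each cell type was fitted on its own, since the tables were counted differently. The labels do not say how libraries relate beyond their mice, so p-values measure the spread between pooled libraries, whose coefficient of variation was 20.5% in OPCs and 27.7% in neurons. An exact permutation test of 3 against 3 cannot go below a p of 0.1. On simulated data with a log2 fold change of 2, 174 of 195 changed genes were called in OPCs (14 unchanged genes called, 17098 genes) and 158 of 199 in neurons (2 unchanged, 14219 genes). The members differed by less than that, and how often changes of their size would be called was not simulated. No library was a copy of another library of its group, the smallest chi-square per gene between replicates being 10.6.

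The members and the 15 gene lists beside them were chosen with earlier results of these data known. Genes named are the 10 members, the targeted genes, up to 3 genes of each list with the smallest p per cell type and the 8 genes most like the members' mean profile, with Plk3 added after its value was seen. Alternatives were DESeq2 1.42.0, other normalizations and filters, the replicate number as a block, and each library left out. The lists of other immediate early, neuronal activity response, heat shock and microglial immune activation genes were run through the same alternatives, a choice made after seeing the data. Start-site sequences are those of RefSeq for GRCm38.p6, and motif matches are exact.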

Additional observations from a re-analysis of the deposited data

How the results depend on the processing

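Over the 12 alternatives, 117 of 119 log2 fold changes of the 10 genes in OPC libraries and 101 of 108 in neuron libraries kept their direction and their side of the adjusted threshold. The exceptions, which changed sign, were Fosb in OPC libraries, at −0.062 when dKO replicate 3 was left out and −0.023 when ctl replicate 1 was, and in neuron libraries Fos at −0.059 without dKO replicate 3 and −0.0095 without ctl replicate 3, Fosb at 0.064 and Arc at −0.012 without dKO replicate 1, and Ier2 at 0.052 without dKO replicate 1, 0.023 without ctl replicate 2 and 0.0019 with total counts only. With a library left out the log2 fold change ran from −0.062 to 0.14 for Fosb in OPC libraries, and in neuron libraries from −0.059 to 0.29 for Fos, −0.35 to 0.064 for Fosb, −0.14 to 0.052 for Ier2 and −0.012 to 1.32 for Arc. No member had an adjusted p under 0.05 under any alternative run. Members with an unadjusted p under 0.05 in OPC libraries, 1 as reported, were 0 with total counts only or a minimum mean count of 50, and 0 to 3 with a library left out. In neuron libraries this count was 0 to 1 with a library left out. Over all genes, those with an adjusted p under 0.05 in OPC libraries, 1 as reported, were 293 with DESeq2, 87 with no filter on low counts and 1 to 199 with a library left out (199 without dKO replicate 2). In neuron libraries they were 0 as reported and 88 with DESeq2. With a library left out, those with an unadjusted p under 0.05 were 1106 to 2292 in OPC libraries and 780 to 1581 in neuron libraries. The cause of these shifts was not tested.

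Same-numbered ctl and dKO libraries did not deviate together, with a correlation of −0.15, 0.19 and 0.17 in OPC libraries and of 0.17, −0.04 and −0.05 in neuron libraries, and not every library correlated best with its own number. With 3 libraries a group these values cannot show whether the numbers pair the samples. With the replicate number as a block 27 genes in OPC libraries had an adjusted p under 0.05 and 2 members an unadjusted one. Npas4 had 5 to 57 counts in OPC and 2 to 20 in neuron libraries, so few counts limit its precision. With 3 libraries a group the adjusted p leaves the changes of the members undecided. The unadjusted intervals of Junb in OPC and of Egr1 in neuron libraries lay above 0, and those of the other members tested held 0.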

Other observations

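Genes of the integrated stress response, the pathway upstream of Atf3, did not move in 1 direction. In OPC libraries 8 of 20 were higher, with a median log2 fold change of −0.034, and 3 were higher and 1 lower at an unadjusted p under 0.05, beside 6.27% and 5.27% of all genes. The lower one was Vldlr, a lipoprotein receptor gene, at 201, 195 and 177 CPM in ctl and 156, 158 and 139 CPM in dKO (−0.34, SE 0.11, adjusted p = 0.335 by edgeR), with no overlap. Atf5, a sister factor of Atf4, stood at 22.9, 23.5 and 29.1 against 39.4, 31.6 and 30.7 CPM (0.43, SE 0.15, adjusted p = 0.358). Slc7a11, the cystine transporter gene, was at 13.3, 17.2 and 19.6 against 16.4, 47.3 and 35.4 CPM (0.99, SE 0.34, adjusted p = 0.351) with overlapping groups. In neuron libraries 11 of 19 were higher (median 0.027) and 0 had an unadjusted p under 0.05.

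Kinases and factors upstream of immediate early genes, such as CaM kinases, RSK and MSK kinases, CREB and SRF partners, were higher in OPC libraries for 28 of 49 genes (median 0.015), beside 50.8% of all genes. At an unadjusted p under 0.05, 2 were higher and 1 lower, smaller shares than the 6.27% and 5.27% of all genes. Camk2b, a CaM kinase II subunit, stood at 6.16, 5.72 and 6.87 CPM in ctl and 11.2, 11.6 and 8.32 CPM in dKO (0.73, SE 0.20, adjusted p = 0.300 by edgeR). Rps6ka5, which encodes the kinase MSK1, stood at 57.1, 73.6 and 59.6 against 43.7, 51.8 and 45.1 CPM (−0.44, SE 0.13, adjusted p = 0.310). Neither overlapped between the groups. In neuron libraries 23 of 49 were higher (median −0.033), and Mapk10, the JNK3 gene, stood at 26.9, 26.1 and 28.4 against 47.6, 34.9 and 36.0 CPM (0.54, SE 0.17, adjusted p = 0.521). Pericyte and vascular smooth muscle markers were higher for 8 of 10 genes in dKO OPC libraries (median 0.30) and for 5 of 10 in dKO neuron libraries (median 0.00090).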
